A study of Homo sapiens with 8 samples.

Results

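The MIR548 family is a set of human miRNA genes with closely related sequences, spread over most chromosomes. Its members were taken as every row of the deposited non-coding RNA tables whose symbol starts with MIR548, which gave 64 of 2709 features on 22 chromosomes. Of these 64 features, 40 had at least 1 read in at least 1 library and 24 had none. Small RNA was sequenced from exosomes of MEC-1 (n = 5) and from the MEC-1 cells themselves (n = 3). MEC-1 is an established B-cell line from chronic lymphocytic leukaemia. Both groups come from that 1 line, so they stand for no other leukaemia. Exosomes are small vesicles that cells release. They were collected from the supernatant of bioreactor cultures by ultracentrifugation, with an Optiprep cushion to separate them from protein aggregates. The medium held fetal calf serum, which had been cleared of its own exosomes except in the upper compartment of the bioreactor. In both groups RNA under 200 nt was isolated with a column kit and ligated to adapters. The comparison asked which small RNAs exosomes carried relative to their parental cells. The labels pair 3 exosome libraries with cell samples without naming which, and do not state whether the libraries of a group are separate cultures. The p-values here therefore describe variation among the libraries sequenced, part or all of which may be technical.

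A miRNA gene is transcribed as a longer RNA that folds into a hairpin. Drosha and Dicer cut a short duplex from the hairpin, and a strand of it, the mature miRNA, guides Argonaute to messenger RNAs that pair with its seed, the stretch from base 2 to base 8. MIR548 genes are known from primates and are thought to derive from MADE1, a short transposable element of the mariner group whose ends are inverted repeats, so that its transcript can fold on itself. Copies of the element lie in many introns across the genome. Since the copies are alike, a short read can match several of them. Mature miR-548 RNAs are commonly reported at low levels in human cells.

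Mature or hairpin sequences of 47 of the 64 features were found in RefSeq's miRNA annotation (GRCh38.p14), with 49 different mature RNAs from 46 of them. The sequences below are those found for the 12 features with the most reads, since the results turn on these; each is written 5′ to 3′ with the seed in capitals. MIR548O and MIR548O2 share miR-548o-3p.
hsa-miR-548o-3p: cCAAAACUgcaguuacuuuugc
hsa-miR-548f-3p: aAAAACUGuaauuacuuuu
hsa-miR-548f-5p: uGCAAAAGuaaucacaguuuuu
hsa-miR-548e-5p: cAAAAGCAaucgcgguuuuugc
hsa-miR-548b-3p: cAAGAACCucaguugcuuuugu
hsa-miR-548b-5p: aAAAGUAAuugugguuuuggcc
hsa-miR-548j-3p: cAAAAACUgcauuacuuuugc
hsa-miR-548j-5p: aAAAGUAAuugcggucuuuggu
hsa-miR-548u: cAAAGACUgcaauuacuuuugcg
hsa-miR-548l: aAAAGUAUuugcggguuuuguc
hsa-miR-548k: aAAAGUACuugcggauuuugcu

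The inverted repeat is visible in the hairpin of MIR548AR, shown because its whole hairpin is in the same annotation and chosen after its values were seen. The capitals mark the 5p arm at the start and the 3p arm at the end.
MIR548AR: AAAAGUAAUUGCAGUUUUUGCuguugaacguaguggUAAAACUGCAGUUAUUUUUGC
The longest unbroken complementary run between its arms is 9 bases. Across the 12 features with both arms annotated this run was from 5 bases in MIR548B to 19 bases in MIR548AJ2. The 7 letters AAAGUAA were present in 16 of the 49 mature sequences, and their reverse complement UUACUUU in 15. One or the other was in 31 of 49 (63.3%), against 7 of 2315 (0.302%) other human mature miRNAs in the annotation, among them miR-603, which is also traced to MADE1. AAAGUAA is the most shared seed of the family, which is itself a set of related sequences. The contrast therefore follows in part from how the family is defined. GC content had a median of 34.8% in the family and 52.2% in the other mature miRNAs.

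Libraries held 23353820 to 32436286 counts in exosomes and 25675636 to 57323598 in cells, over all 2709 features. Of the B-cell and blood miRNAs looked up as a check of the labels, 5 had rows. Their reads summed to between 5368 and 22297 per 1000000 counts in exosomes and between 7226 and 39031 per 1000000 counts in cells. MIR21 made up most of the sum in every library, and MIR142 and MIR155 had no row. The sums therefore mainly show MIR21 and do not by themselves establish that the RNA is from B cells. The 8 rows for miRNAs of liver, stroma, endothelium, red cells and other tissues summed to between 106 and 381 per 1000000 counts in exosomes and between 50.1 and 93.5 in cells. Among these, MIR1-1 and MIR203 had no read in cell 2. MIR122, of liver, was higher in exosomes by a log2 of 5.47 (adjusted p = 0.000193, edgeR's quasi-likelihood test). MIR143 (3.89), MIR203 (3.83) and MIR126 (2.90) were also called higher, as were 20.7% of all features tested. The list was not uniform. MIR486 (0.86, adjusted p = 0.299, edgeR), MIR223 (0.40, adjusted p = 0.754, edgeR) and MIR9-1 (-1.28, adjusted p = 0.106, edgeR) were not called, and MIR1-1 was not tested. The part of these 8 rows in the values that follow was not tested.

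Exosome 5 and cell 2 stood apart from the other libraries in their MIR548 reads. MIR548B, MIR548J and MIR548K had reads in each of the other 6 libraries and none in these 2. They make up 3 of the 12 most abundant family members (25%), against 8 of 188 (4.26%) other miRNA genes with summed reads in the same range, 48 to 441. This pair of libraries was singled out after the missing reads were seen. Taken library by library, the family was nearer to other miRNA genes, with no read in exosome 5 for 6 of the 12 members and 58 of the 188 others, and no read in cell 2 for 4 of the 12 and 49 of the 188. MIR548AX also lacked reads in both, and in exosome 1. Together, the reads of MIR548B, MIR548J, MIR548K and MIR548AX came to 29, 47, 33, 70 and 0 in exosomes 1 to 5, and to 70, 0 and 59 in cells 1 to 3. Total counts of these libraries were not low, with 27316077 in exosome 5 and 54461350 in cell 2. Their factors from TMM scaling, which corrects for a few features taking a large share of a library, were the lowest of the 8, with 0.524 in exosome 5 and 0.552 in cell 2 against 0.905 to 1.46 in the others. What part this has in the missing reads was not tested. Values without both libraries stand beside the results that they move.

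MIR548 features were rare in both groups. All 64 together had 2597 reads among 279858876 counts in the 8 libraries. Family members with reads numbered 25, 24, 26, 20 and 9 in exosomes 1 to 5, and 25, 16 and 28 in cells 1 to 3. Exosome 5 and cell 2 had the fewest of their groups. When the number was computed for the same depth, that of the smallest library, it was 20.0 ± 6.63 in exosomes (SD, n = 5) and 20.2 ± 6.39 in cells (SD, n = 3), with exosome 5 at 8.71 and cell 2 at 12.9. Reads in both groups were found for 29 members, in exosomes alone for 7 and in cells alone for 4. The 7 found in exosomes alone had at most 12 reads, and the 4 found in cells alone at most 8, so neither set stands for presence in 1 group only. For the 24 features without a read, a count of 0 allows up to 0.0107 reads per 1000000 counts over the 8 libraries (3 counts; libraries carried no molecular identifiers, so floors and intervals cover counting error only).

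**Figure D1:**
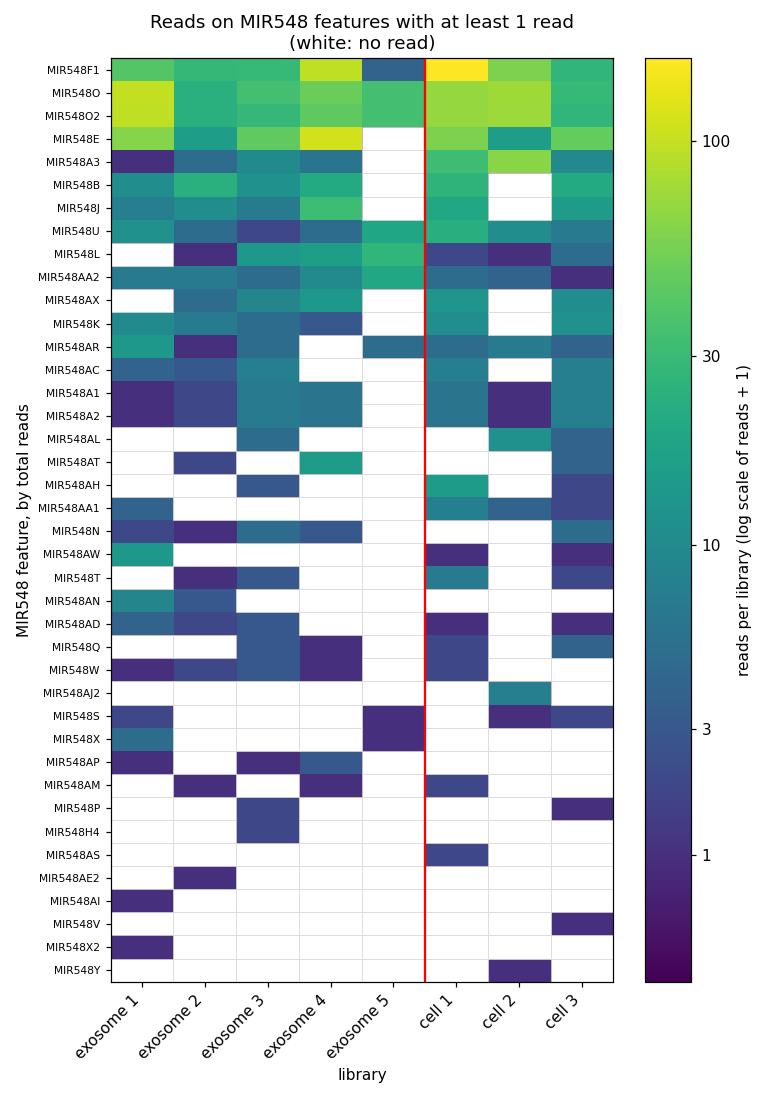
Reads per library (colour, log scale of reads + 1; white, no read) for the 40 MIR548 features with at least 1 read, ordered by total reads, with exosome libraries left of the red line and cell libraries right of it. The top rows carry most reads, MIR548O and MIR548O2 look the same in every library, and exosome 5 has reads on 9 features.

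The summed level of the family was alike in range between exosomes and cells. It was 15.2, 5.51, 7.92, 19.1 and 5.31 reads per 1000000 counts in exosomes 1 to 5, and 21.5, 6.22 and 4.69 in cells 1 to 3. The means were 10.6 ± 6.21 in exosomes (SD, n = 5) and 10.8 ± 9.31 in cells (SD, n = 3), and the groups overlapped. The exosome minus cell difference was -0.21, and -1.18 without exosome 5 and cell 2. Exact (Clopper-Pearson) 95% binomial intervals within a library were narrow beside this spread, as in exosome 4 (17.4 to 21.0) and cell 1 (19.8 to 23.4). The share of counts on miRNA genes of any kind also differed between libraries, from 3.10% to 11.5% in exosomes and from 6.22% to 12.2% in cells. Per 1000000 reads on miRNA genes the family had 151, 178, 137, 166 and 106 reads in exosomes 1 to 5, and 177, 100 and 70.3 in cells 1 to 3. The means on this scale were 147 ± 27.6 in exosomes (SD, n = 5) and 116 ± 54.9 in cells (SD, n = 3), and cell 1 lay within the range of the exosome libraries. No test was made on either sum, since the members were chosen with results known.

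**Figure D2:**
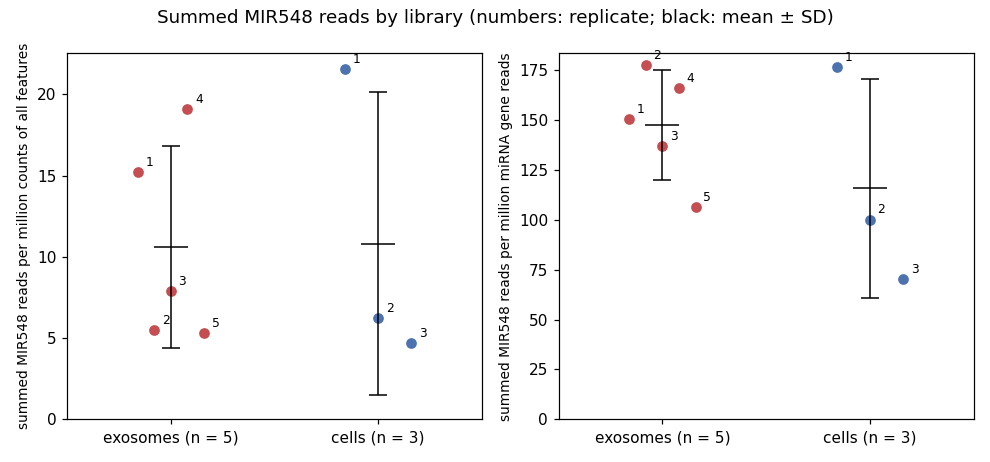
Summed MIR548 reads per 1000000 counts of all features (left) and per 1000000 miRNA gene reads (right) in each exosome and cell library; points are libraries with their replicate numbers, black bars the mean ± SD. The groups overlap on both scales, and cell 1 is far above the other cell libraries.

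Reads were concentrated in few members. MIR548F1, MIR548O, MIR548O2 and MIR548E held 1610 of the 2597 reads (62.0%), and the 12 most abundant members held 86.8%. MIR548O and MIR548O2 together held 31.3%, with nearly equal counts in every library. The same reads may stand in both, so these shares may count some reads more than once. Over 100 reads in all were found for 6 members, 11 to 100 reads for 19 and 1 to 10 reads for 15. Only 5 members had reads in all 8 libraries.

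No MIR548 feature passed the test between exosomes and cells as designed, although MIR548L and MIR548A3 each passed in 2 of the other settings. With edgeR's quasi-likelihood test over the whole table, 8 members passed the filter on low counts and 0 were called at an adjusted p under 0.05 (0 also at an unadjusted p under 0.05, 0 with limma-voom and 1, MIR548L, with DESeq2). Among all 1178 features tested, 507 (43.0%) were called, 244 higher (20.7%) and 263 lower (22.3%) in exosomes. In none of the 8 were all exosome libraries above or all below the cell libraries, as they were in 41.7% of all features tested. Having passed a filter on counts, the 8 do not stand for the other 56. Their median log2 fold change, exosome over cell, was 0.04, and that of all features tested was -0.09.

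MIR548F1 had the most reads of the family (chromosome 10, 56367634 to 56367717, minus strand, GRCh37). It had 40, 28, 29, 97 and 4 reads in exosomes 1 to 5, and 158, 58 and 27 in cells 1 to 3. Cell 1 was the highest library and exosome 5 the lowest, and the groups overlapped. In CPM (reads per 1000000 counts of the library total times its TMM factor) it averaged 1.16 ± 1.00 in exosomes (SD, n = 5) and 2.26 ± 1.93 in cells (SD, n = 3), with a log2 fold change of -0.95 (SE 0.79, 95% interval -2.63 to 0.72, adjusted p = 0.358, edgeR). It came to -0.13 without cell 1 and -0.97 without exosome 5 and cell 2 together. The gene lies in an intron of PCDH15, a cadherin gene of sensory hair cells.

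MIR548O (chromosome 7, 102046189 to 102046302, minus strand) and MIR548O2 (chromosome 20, 37145206 to 37145275, plus strand) came next. MIR548O had 98, 24, 34, 50 and 34 reads in exosomes 1 to 5, and 70, 76 and 29 in cells 1 to 3. MIR548O2 had 97, 24, 28, 44 and 34 reads in exosomes, and 70, 74 and 27 in cells. The 2 features differed by 0 to 6 reads in every library, so they cannot be taken as separate measurements. Both groups covered nearly the same range. MIR548O averaged 1.66 ± 1.02 CPM in exosomes (SD, n = 5) and 1.67 ± 1.01 CPM in cells (SD, n = 3), a log2 fold change of -0.014 (SE 0.72, 95% interval -1.54 to 1.51, adjusted p = 0.992, edgeR). MIR548O2 was at -0.045 (adjusted p = 0.969, edgeR). The interval of MIR548O still holds changes of over 2-fold in either direction. The sign of both features turned with scaling by total counts or by the upper quartile. MIR548O lies in an intron of PRKRIP1 on the opposite strand, and MIR548O2 in an intron of RALGAPB on its strand. MIR548O and MIR548O2 took 46.9% of family reads in exosome 5 and 44.2% in cell 2, 47.6% in exosome 1, and 20.8% to 27.0% in the other libraries.

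MIR548E (chromosome 10, 112748684 to 112748771, plus strand) lies in an intron of SHOC2, which encodes a scaffold protein of RAS signalling. It had 62, 16, 45, 112 and 0 reads in exosomes 1 to 5, and 58, 16 and 47 in cells 1 to 3. Exosome 4 was the highest of all libraries and exosome 5 had no read. The means were 1.33 ± 1.30 CPM in exosomes (SD, n = 5) and 1.01 ± 0.537 CPM in cells (SD, n = 3), with a log2 fold change of 0.40 (SE 0.96, 95% interval -1.64 to 2.45, adjusted p = 0.766, edgeR).

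MIR548B (chromosome 6, 119390212 to 119390308, minus strand; intron of FAM184A) had 11, 24, 12, 21 and 0 reads in exosomes, and 26, 0 and 21 in cells. MIR548J (chromosome 22, 26951178 to 26951289, minus strand; intron of TPST2, a tyrosylprotein sulfotransferase gene) had 8, 11, 7, 32 and 0 reads in exosomes, and 20, 0 and 15 in cells. Both were absent from the same 2 libraries, and elsewhere their groups overlapped. Their log2 fold changes were 0.05 for MIR548B (95% interval -2.29 to 2.40, adjusted p = 0.978, edgeR) and 0.26 for MIR548J (95% interval -2.19 to 2.71, adjusted p = 0.877, edgeR). Both turned negative without exosome 5 and cell 2, to -0.33 and -0.13.

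MIR548U (chromosome 6, 57254930 to 57255010, plus strand) lies in an intron of PRIM2, which encodes a subunit of DNA primase. It had 12, 5, 2, 5 and 19 reads in exosomes 1 to 5, and 23, 11 and 7 in cells 1 to 3. In contrast to MIR548B and MIR548J it had reads in exosome 5 and cell 2, and exosome 5 was its highest exosome library. The means were 0.406 ± 0.529 CPM in exosomes (SD, n = 5) and 0.377 ± 0.248 CPM in cells (SD, n = 3), a log2 fold change of 0.02 (95% interval -2.28 to 2.32, adjusted p = 0.992, edgeR). It was below 0 with scaling by total counts, at -0.34. Without exosome 5 and cell 2 it was -1.25 (adjusted p = 0.361, edgeR).

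MIR548L had the largest difference of the 8 (chromosome 11, 94199661 to 94199746, minus strand). It lies in an intron of MRE11, a gene for repair of DNA double-strand breaks. It had 0, 1, 14, 16 and 27 reads in exosomes 1 to 5, and 2, 1 and 5 in cells 1 to 3. Exosomes 3, 4 and 5 were above every cell library, and exosomes 1 and 2 were below the highest cell library, so the groups overlapped. The means were 0.538 ± 0.779 CPM in exosomes (SD, n = 5) and 0.0615 ± 0.0321 CPM in cells (SD, n = 3). The log2 fold change was 2.94 (SE 1.43, 95% interval -0.08 to 5.96), which did not pass (adjusted p = 0.107, edgeR). It passed with DESeq2 (3.13, adjusted p = 0.0456, where 47.8% of all features tested were called) and without exosome 1 (3.18, adjusted p = 0.0435, where 37.4% were). With limma-voom it was at 1.1 (adjusted p = 0.582), and without exosome 5 and cell 2 at 1.34 (adjusted p = 0.478, edgeR). Without exosome 3, exosome 4 or exosome 5 alone it did not pass the filter and was not fitted. MIR548L thus entered the test only through exosome libraries where it is high, which favours a call of higher. The fit without exosome 1 also drops its lowest exosome library, with 0 reads. No conclusion is drawn from the 2 settings in which it passed.

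**Figure D3:**
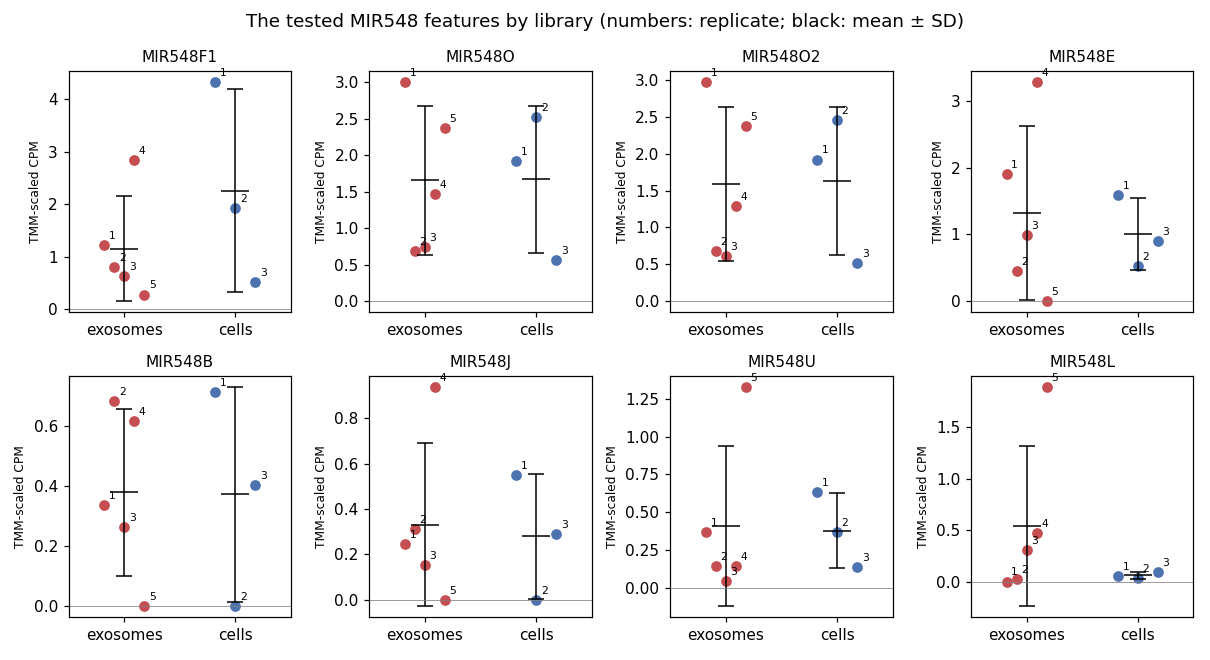
TMM-scaled CPM of the 8 tested MIR548 features in each library (points, with replicate numbers; exosomes left, cells right), with mean ± SD in black; lower bars that cross 0 only reflect the SD. The groups overlap in each panel, MIR548B and MIR548J are at 0 in exosome 5 and cell 2, and MIR548U and MIR548L are highest in exosome 5.

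**Figure D4:**
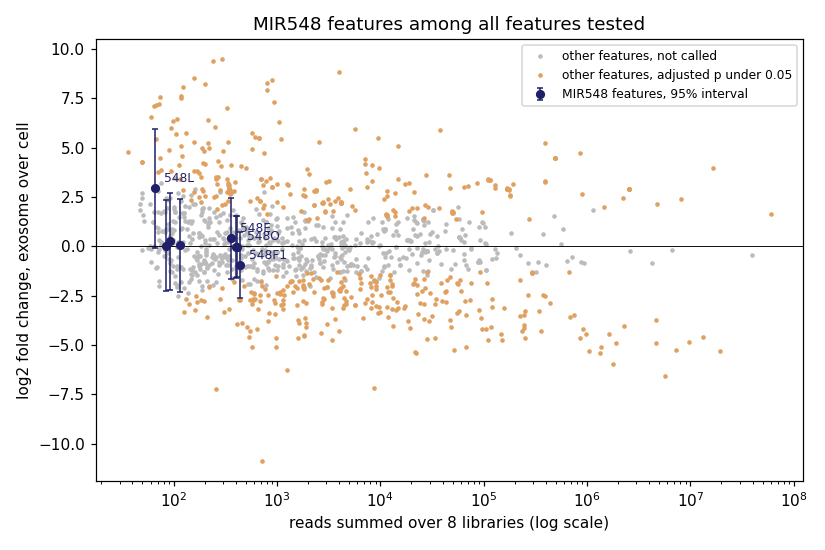
Log2 fold change, exosome over cell, against reads summed over 8 libraries (log scale) for all features tested, with the 8 MIR548 features and their 95% intervals in dark blue. The MIR548 features sit at the low end of the reads, and each interval includes 0.

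Of the 12 most abundant members, 4 did not pass the filter on low counts. MIR548A3, on chromosome 8, had more reads in cells: 1, 5, 10, 6 and 0 reads in exosomes 1 to 5, and 32, 64 and 10 in cells 1 to 3. Cells 1 and 2 were above every exosome library, and cell 3 equalled exosome 3 in reads. It averaged 0.114 ± 0.0944 CPM in exosomes (SD, n = 5) and 1.07 ± 0.982 CPM in cells (SD, n = 3). With the filter removed its log2 fold change was -2.72 (SE 1.06, adjusted p = 0.0407, edgeR), and it was the only one of 40 members called, where 27.2% of all 2159 features with reads were. Cell 2, which stood apart above, was its highest library at 2.13 CPM. Without cell 1, without cell 2, or without exosome 5 and cell 2 together, it did not pass the filter and was not fitted. Without cell 3 it passed the filter and was at -3.21 (adjusted p = 0.0362, edgeR, with 32.8% of features called). That fit drops the lowest cell library of MIR548A3, at 0.193 CPM beside 0.219 CPM in exosome 3. Only cells 1 and 2, its highest libraries, remain in the cell group, so no conclusion is drawn from this fit. With miRNA symbols fitted alone MIR548A3 missed the threshold at -2.94 (adjusted p = 0.081, edgeR).

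MIR548AA2 (chromosome 17, 65467605 to 65467701, plus strand; intron of PITPNC1, a gene for a phosphatidylinositol transfer protein) had 7, 7, 5, 10 and 20 reads in exosomes 1 to 5, and 5, 4 and 1 in cells 1 to 3. The lowest exosome count equalled the highest cell count, and with the filter removed the log2 fold change was 2.36 (SE 1.29, adjusted p = 0.173, edgeR). The gene overlaps MIR548D2 in the annotation, and since it is not given in the sources used here whether strand was used in counting, reads of the 2 genes may not be told apart. MIR548AX (chromosome X, 11336734 to 11336806, minus strand) had 0, 5, 9, 14 and 0 reads in exosomes, and 13, 0 and 11 in cells. MIR548K (chromosome 11, 70130061 to 70130176, plus strand) had 10, 7, 5, 3 and 0 reads in exosomes, and 11, 0 and 12 in cells. For both the groups overlapped, with log2 values of -0.08 for MIR548AX and -0.12 for MIR548K once the filter was removed. Without exosome 5 and cell 2 both passed the filter, at -0.66 for MIR548AX (adjusted p = 0.66, edgeR) and -0.67 for MIR548K (adjusted p = 0.60, edgeR). Without cell 2 alone MIR548AX was at -0.935 (adjusted p = 0.609, edgeR) and MIR548K at -0.934 (adjusted p = 0.561, edgeR). Without cell 3 alone both were above 0, MIR548AX at 0.046 (adjusted p = 0.984, edgeR) and MIR548K at 0.158 (adjusted p = 0.946, edgeR). Their sign thus turned with the cell library left out.

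Features that share a letter, and so are named as copies of a gene, did not share their reads in the same way. MIR548A1 and MIR548A2, both on chromosome 6, had identical counts in every library, with 1, 2, 7, 6 and 0 reads in exosomes 1 to 5, and 6, 1 and 8 in cells 1 to 3. MIR548A3 stood apart from both, with 64 reads in cell 2 where they had 1. Of the MIR548F genes, MIR548F1 had 441 reads, and MIR548F2, MIR548F3, MIR548F4 and MIR548F5 had none, although the annotation gives all 5 the same miR-548f-3p shown above. MIR548O and MIR548O2, which also share their annotated mature RNA, had nearly equal counts. Of 5 MIR548H genes only MIR548H4 had reads, 2 in exosome 3, and none of 4 MIR548I genes had any. MIR548AA1 had 4 reads in exosomes and 14 in cells, whereas MIR548AA2 had 49 in exosomes and 10 in cells. How reads that match several places were counted is not given in the sources used here, and whether the reads of MIR548F1 came from its mature arms was not tested, since the tables give 1 count per gene.

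**Figure D5:**
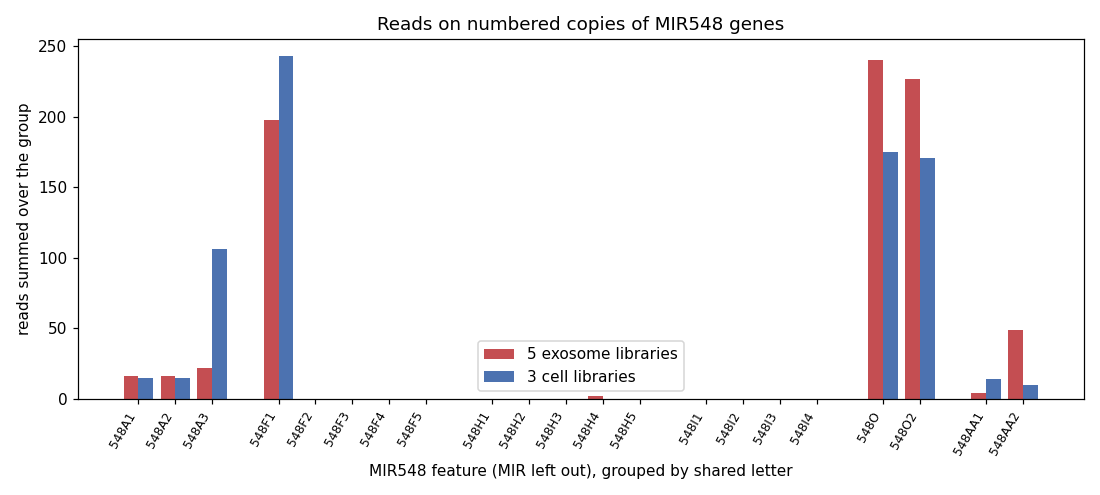
Reads summed over the 5 exosome libraries (red) and the 3 cell libraries (blue) for numbered copies of MIR548 genes, grouped by letter; the sums are not scaled for depth. MIR548O and MIR548O2 have nearly equal bars, and MIR548F1 is the only MIR548F copy with reads.

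The members ranked 13 to 25 had 11 to 41 reads in all, and several owed most of them to 1 library. MIR548AR had 14, 1, 5, 0 and 5 reads in exosomes 1 to 5, and 5, 7 and 4 in cells 1 to 3. MIR548AC had 15 reads in exosomes and 16 in cells, and MIR548N had 11 in exosomes and 5 in cells. MIR548AT had 17 in exosomes, 15 of them in exosome 4, and 4 in cells. MIR548AW had 14 in exosomes, all in exosome 1, and 2 in cells. MIR548AN had 12 reads in exosomes, 9 of them in exosome 1, and 0 in cells. MIR548AL had 5 in exosomes and 16 in cells, 12 of these in cell 2. MIR548AH had 3 in exosomes and 17 in cells, 15 of these in cell 1. MIR548AA1, MIR548T and MIR548AD had 18, 13 and 11 reads in all. The remaining 15 members with reads had 1 to 10 in all, and 8 members had reads in a single library, among them MIR548AJ2 with 8 reads in cell 2.

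The seed AAAGUAA was shared by 10 of the 49 mature RNAs, including miR-548b-5p and miR-548j-5p, and the 10 genes that carry it had 266 reads. The seed AAAAACU was shared by 7 mature RNAs, including miR-548j-3p, and its 10 genes had 133 reads. CAAAACU, the seed of miR-548o-3p alone, belongs to 2 genes with 813 reads, which are nearly equal counts of 2 copies, and AAAAGCA, the seed of miR-548e-5p, to 1 gene with 356 reads. A gene with both arms counts under both seeds, and the tables do not tell the arms apart, so these sums are of genes and not of seeds. The seeds AAAGUAU of miR-548l and AAAGUAC of miR-548k belong to genes with 66 and 48 reads.

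In the GENCODE 29 annotation, on the newer genome build, 40 of the 64 genes lie within a protein-coding gene and 5 within a long non-coding gene only, always in introns, and 19 lie in neither. Of the 40, 33 are on the strand of a host gene and 7 only on the opposite strand. Reads were found for 28 of the 40 genes inside protein-coding genes, and for 62.5% of all 64 genes. Of the 12 most abundant members, 10 lie in an intron on the strand of the host gene, as do 33 of all 64 genes. MIR548O lies opposite to its host, and MIR548A3 lies in no such gene. Whether the place of a gene goes with its reads was not tested. The feature length had a median of 85.0 nt for the 40 members with reads and 86.5 nt for the 24 without.

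Compared with other miRNA genes, the family had fewer counted reads per gene. The counts of near-identical copies depend on how reads matching several places were treated, which is not given. Reads were found for 40 of 64 MIR548 features (62.5%) and 877 of 1271 other miRNA genes (69.0%). The median was 3.5 reads in 8 libraries for MIR548 features and 6 for the others. Over 100 reads were found for 6 MIR548 features (9.38%) and 292 other miRNA genes (23.0%), and the filter on low counts passed 8 MIR548 features (12.5%) and 325 others (25.6%). Of the 325 others, 41 were higher and 26 lower in exosomes (20.6% called). Over all 341 tested miRNA symbols, the family and host or antisense genes included, 19.9% were called. Among tested miRNA symbols with summed reads in the range of the 8 tested members, 66 to 441, 25 of 129 were called (19.4%), against 0 of 8 in the family. With 8 members this difference was not tested.

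MIR570 and MIR603, which are traced to the same element under other names, were as rare. MIR570 had 8, 4, 2, 0 and 0 reads in exosomes 1 to 5, and 3, 6 and 0 in cells 1 to 3, and MIR603 had none. Of 12 miRNAs traced to other transposable elements, 11 had reads, 10 were tested, 0 were higher and 1 was lower in exosomes, with a median of 1679 reads each. That 1 of 10 stands beside 43.0% of all features tested. The lower one was MIR421 (109, 72, 44, 194 and 17 reads in exosomes; 175, 586 and 160 in cells), with a log2 fold change of -1.78 (SE 0.69, adjusted p = 0.0483, edgeR). It averaged 2.65 ± 1.94 CPM in exosomes (SD, n = 5) and 9.13 ± 9.02 CPM in cells (SD, n = 3). Cell 2 was by far the highest library and exosome 4 was above cells 1 and 3, so the groups overlapped. MIR95, which is traced to an older repeat, had 7, 9, 79, 78 and 32 reads in exosomes and 15, 21 and 6 in cells, and did not pass (log2 1.72, adjusted p = 0.161, edgeR).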

How the data were processed

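Each of the 8 libraries (5 exosome, 3 cell) has a deposited table of raw read counts for 2709 features, in the layout of featureCounts per the file headers. Tools named in the submitters' processing notes are STAR, featureCounts, cutadapt 1.1 and DESeq2 1.8.2, with the GRCh37 build. How reads matching several places were treated is not given in the sources used here. Groups came from sample titles. The members, lists and named genes were chosen with earlier results of these data known. The 12 members with most reads and any called are described in full, and those to rank 25 by value.

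Exosomes were compared with cells over the whole table by edgeR 4.0.16's quasi-likelihood test (R 4.3.3) with TMM scaling, the default low-count filter (minimum of 10 counts) with p-values adjusted by the Benjamini-Hochberg method over all features tested. Calls needed an adjusted p below 0.05. The standard error is the log2 fold change over the square root of F. The fit was also run on simulated counts of the features that passed the filter, as a check of the code only. That run capped the spread between libraries and does not speak to features with few reads. Alternatives used DESeq2 1.42.0, limma-voom 3.58.1, other scalings and filters, and libraries left out. miRNA genes are MIR symbols without 10 host or antisense genes. Depth was 23353820 to 57323598 counts per library. Sequences came from RefSeq, and hosts from GENCODE 29 by symbol, with 64 of 64 matched.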

Additional observations from a re-analysis of the deposited data

Results flagged for a closer look

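In 3 members, exosome 5 lay far above the other exosome libraries on the TMM-scaled scale, by a test for an outlying value in each of 15 quantities. By chance the test marks about 1 in 20 where values are normally distributed, which values from so few reads need not be. MIR548U was at 1.33 CPM in exosome 5 and at most 0.368 in the other exosome libraries. MIR548L was at 1.89 CPM in exosome 5 and at most 0.469 in the others. MIR548AA2 was at 1.40 CPM in exosome 5 and at most 0.293 in the others. In reads per 1000000 counts, without the TMM factor, exosome 5 had 0.696 for MIR548U, 0.988 for MIR548L and 0.732 for MIR548AA2, and the next exosome library had 0.445, 0.685 and 0.428. Exosome 5 thus stood out less in all 3 on that scale. These rest on 19, 27 and 20 reads.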

How the results depend on the processing

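No MIR548 feature was called in most settings; the exceptions were 1 higher with DESeq2, 1 lower with no filter on low counts, and among fits that leave out 1 library 0 to 1 higher and 0 to 1 lower. All features called higher ranged from 179 to 272, and lower from 189 to 261, when 1 library was left out. With MIR symbols alone they were 28 and 19. The replicate block on exosomes 1 to 3 and cells 1 to 3 gave 162 and 171, against 181 and 217 in these libraries without a block, with 5 MIR548 features tested in each and 0 called. MIR548L, MIR548J and MIR548U were not among these 5. Deviations of same-numbered libraries correlated at 0.102, -0.043 and 0.087, and not every library correlated best with its own number, so the numbers were not taken as pairs. Near-zero log2 values changed sign. MIR548O was at 0.20 with total count scaling, 0.36 with upper-quartile scaling, 0.012 with limma-voom, 0.26 with no filter, 0.44 at 50 counts in 3 libraries and 0.052 with near-identical features counted once, and MIR548O2 at 0.14, 0.33, 0.23, 0.41 and 0.021 in the same settings other than limma-voom. Counting near-identical features once removed no MIR548 feature, so that setting could not check double counting within the family. MIR548E was at -0.25 with limma-voom. MIR548U was at -0.34 with total count scaling, -0.65 with limma-voom and -0.25 with MIR symbols alone. Without exosome 5 and cell 2, a setting chosen after seeing the data, MIR548O was at 0.13, MIR548O2 at 0.060, MIR548B at -0.33, MIR548J at -0.13 and MIR548U at -1.25. The causes were not tested. Leaving out 1 library gave -0.36 to 0.56 for MIR548O, -0.43 to 0.55 for MIR548O2, -0.0062 to 0.83 for MIR548E, -0.62 to 0.77 for MIR548B, -0.42 to 1.01 for MIR548J, -0.27 to 0.70 for MIR548U, -1.26 to -0.13 for MIR548F1 and 2.50 to 3.74 for MIR548L. These ranges cover all 8 fits except for MIR548J (5, not fitted without exosome 2, 3 or 4), MIR548U (6, not without exosome 1 or 5) and MIR548L (5, not without exosome 3, 4 or 5, its highest libraries). The exosome minus cell difference in summed reads was -0.21 per 1000000 counts (-3.27 to 5.15 without 1 library, the highest without cell 1; -1.18 without exosome 5 and cell 2) and 23.4 per 1000000 reads on MIR symbols. With MIR548O2 and MIR548A2 left out, a setting chosen after seeing the data, that difference was -0.34 per 1000000 counts. Members with reads were 40 (38 to 40 without 1 library, 38 without MIR548O2 and MIR548A2), and 26 had at least 10 reads. Scaling by total counts put the median of all features at 0.19 and by the upper quartile at 0.25, in place of -0.09. With 48 to 441 reads in all, each of the 12 most abundant members is limited by counting and by the spread between libraries. Rarer ones were fitted only with the filter removed, on 41 reads or fewer in all.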
